A study of Mus musculus with 12 samples.

Results

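The libraries described here are the 3 PBS controls of a mouse sepsis-associated encephalopathy series of 12 libraries. They were chosen by their titles alone, and the 9 libraries of lipopolysaccharide-injected mice were not used here. All mice were C57BL6, wild type, and 2 to 3 months old. The controls received endotoxin-free PBS intraperitoneally, and the time from that injection to collection was not given in the sources used here. Each control library held the cerebral vessels of 1 male and 1 female mouse pooled together, so the group stood for 6 mice and 3 independent pools. The vessels were taken from the forebrain after perfusion and removal of the meninges, then enriched by homogenisation, dextran centrifugation and capture on a mesh. No cell sorting followed, so arteries, capillaries and veins entered the same library with whatever adhered to them.

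Cerebral vessels are tubes of endothelial cells wrapped by pericytes in capillaries and by smooth muscle cells in arteries and arterioles. Brain endothelial cells are known for the blood-brain barrier. They seal their contacts with tight junctions, keep vesicle transport low, and carry nutrients across by dedicated transporters while efflux pumps return many drugs to the blood. A resting endothelium also senses circulating inflammatory signals, and it is known to raise some adhesion molecules and chemokines when stimulated.

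The 3 libraries held 22962290, 25641124 and 22521063 fragments assigned to transcripts. Levels are given as TPM, the fragments of a transcript divided by its length and scaled to the same total in every library, so that genes can be compared with each other. Values follow as mean ± SD over 3 libraries, or as the 3 values in the order of libraries 1, 2 and 3. Between any pair of libraries the Pearson correlation of log2(TPM + 1) across 54119 genes was 0.988 to 0.989, which is across genes and not across independent samples. The libraries come from separate pools, and over 14728 genes the squared difference between 2 libraries was 3.20 to 7.99 times that of counting alone in the mean and 2.59 to 2.89 times in the median. In bulk RNA, fewer cells of a type and less RNA per cell cannot be told apart.

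A gene was taken as present where it reached 1 TPM in every PBS library. By that limit 15412 of 54119 genes were present, 13621 of them protein coding. Of all protein coding genes, 62.5% reached 1 TPM and 40.2% reached 10 TPM in every library. The counts of each list below are to be read against these shares. Of all genes, 9087 reached 10 TPM and 1228 reached 100 TPM in every library, and these 1228 genes held 68.3% of all TPM. No fragment was assigned to 26433 genes in any library, counting only transcripts joined to the annotation. Of these, 26384 also had 0 in the authors' gene table. Zfp869, with no fragment here, had 941, 903 and 880 normalized counts there, so a 0 is not always absence. The RNA was concentrated, with 12 genes making up 25% of TPM, 242 genes 50% and 5476 genes 90%.

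The 20 most abundant genes by mean TPM were 11 genes of the mitochondrial genome, 2 nuclear copies of mitochondrial sequence, and 7 nuclear genes. The nuclear genes were Ttr, Ptgds, Bsg, Apoe, Hbb-bs, Ly6c1 and Hba-a2. The first place of mt-Atp8, a subunit of ATP synthase, at 95735, 94566 and 101980 TPM went with its length. Its transcript of 204 bases had an effective length of 19 bases in library 1, and it took 0.139% of fragments against 9.74% of TPM. For mt-Nd4l, a subunit of complex I with 297 bases, the same shares were 0.0906% and 2.11%. The 10 most abundant genes together made up 23.3% ± 0.43 of the TPM assigned to genes but 7.47% when fragments were counted. With transcripts under 300 bases left out, an alternative chosen after seeing the data, the share was 15.1%.

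The genes of the mitochondrial genome together contributed 23.2% ± 0.83 of TPM and 6.43% ± 0.083 of fragments. The nuclear copies described below were not counted in these shares, so reads that moved between mt-Co2 and Gm28661 enter the SD. Counted by fragments, the most abundant gene was mt-Co1, a subunit of cytochrome oxidase, with 1.89% ± 0.016, followed by Ttr with 1.17% ± 0.028 and mt-Cytb with 0.772% ± 0.015. mt-Co2 was measured at 8930, 8952 and 17529 TPM, and Gm28661, a nuclear pseudogene, at 13062, 13695 and 4412 TPM. All 657 words of 25 bases in the Gm28661 transcript were also found in mitochondrial transcripts, and 97.2% of those of the other pseudogene, Gm29216. The pair moved in opposite directions in library 3 while their sum stayed at 21992, 22647 and 21941 TPM. Near-identical copies share reads, so neither value is certain by itself. Cytosolic ribosomal protein genes made up 6.07% ± 0.082 of TPM.

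Among nuclear protein coding genes the levels were close in all 3 libraries. Ttr, which encodes the thyroxine carrier transthyretin made by the choroid plexus, had 16560, 16306 and 17003 TPM. Ptgds, the prostaglandin D2 synthase known from meningeal and perivascular cells, had 13091, 12805 and 13463 TPM. Bsg, a partner of monocarboxylate transporters that is abundant in brain endothelium, had 6508, 6499 and 6342 TPM. These 3 genes headed the nuclear order without overlap, and Apoe, a lipid carrier of glial and mural cells, followed with 5449 ± 154 TPM. Behind Apoe came Hbb-bs with 4183 ± 288, Ly6c1 with 3852 ± 39, Hba-a2 with 3685 ± 251 and Cldn5 with 3189 ± 67 TPM. Hbb-bs overlapped neither Apoe nor Ly6c1, whereas Ly6c1 and Hba-a2 overlapped across libraries. Myl6 with 3107 ± 50 and Rpl13a followed, and Myl6 reached 3153 TPM in library 1, above the lowest Cldn5 value of 3139. Further down stood Mgp, an inhibitor of vascular calcification on the arterial list, with 2631 ± 32 TPM, and Pltp, a phospholipid transfer protein, with 2301 ± 29.

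**Figure D1:**
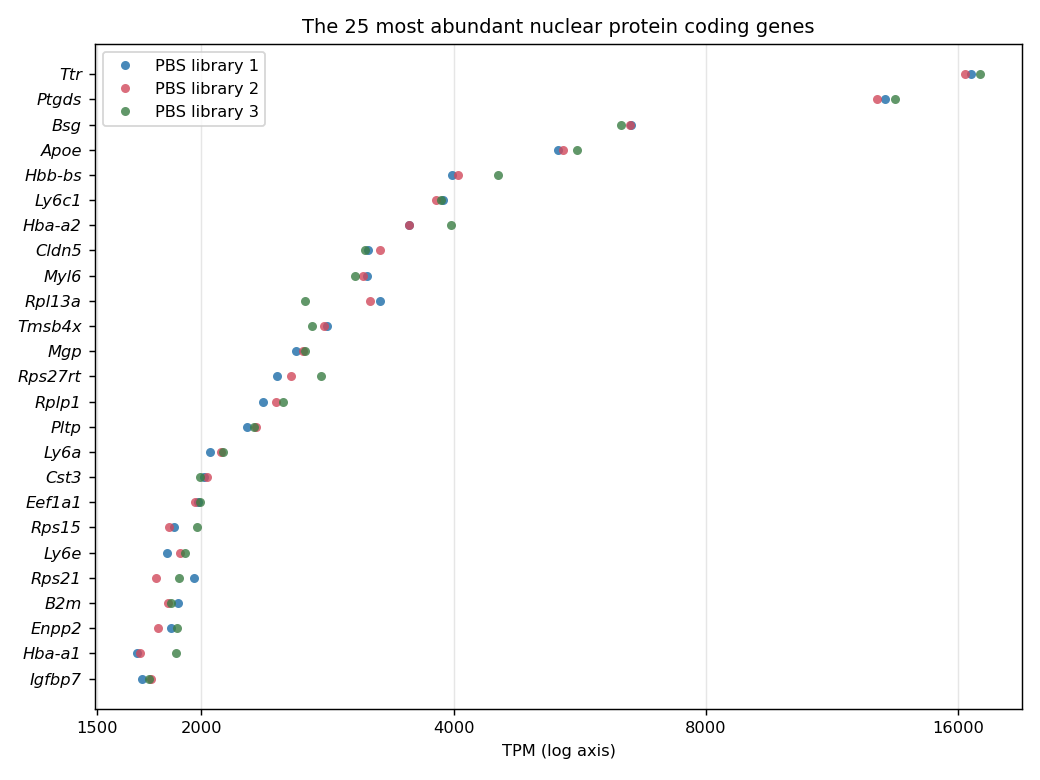
TPM (log axis) of the 25 most abundant nuclear protein coding genes, 1 point for each of the 3 PBS libraries. The points of most genes lie almost on top of each other, from Ttr near 16623 TPM at the top down to Igfbp7 at 1725 TPM, and Bsg, Ly6c1 and Cldn5 stand among the first 8 genes.

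Endothelial identity genes were high throughout. All 24 genes of the endothelial list passed 10 TPM in every library, 23 passed 100 TPM, and the list median was 463, 460 and 449 TPM (458 ± 7.3). Over all 15412 present genes the median was 15.2 ± 0.20 TPM. The highest was Bsg, and the lowest was Kdr, the main VEGF receptor, with 99.4, 96.7 and 92.6 TPM. Even Kdr stood at the 91.2th percentile of present genes. Ly6a was at 2095 ± 42 TPM, Egfl7 at 1457 ± 108, Vwf at 867 ± 12 and Slco1a4, a carrier of organic anions, at 718 ± 26.

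Several receptor and adhesion genes of the same list lay below these. Pecam1, an adhesion molecule of endothelial contacts, had 433, 432 and 428 TPM. Cdh5, the VE-cadherin of adherens junctions, had 200, 204 and 196 TPM, and the ratio of Pecam1 to Cdh5 was 2.15 ± 0.032 within libraries. Flt1, Eng and Esam, at 461 ± 11, 460 ± 8.9 and 459 ± 1.5 TPM, did not differ beyond their spread. Flt1, the decoy-like VEGF receptor, exceeded Kdr 4.79 ± 0.084-fold. The angiopoietin pathway receptors Tie1 and Tek stood at 247 ± 0.32 and 191 ± 3.9 TPM.

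Genes of each vessel segment were present. All 12 arterial, 7 capillary and 5 venous genes passed 10 TPM in every library, with list medians of 57.7 ± 1.8, 136 ± 3.9 and 50.3 ± 1.7 TPM. The arterial list was led by Mgp, followed by Sema3g with 194 ± 6.9 TPM, and Unc5b was lowest. Among capillary genes, Spock2 had 738 ± 6.3, Car4 410 ± 7.7 and Slc16a1, the lowest, 73.2 ± 2.2 TPM. Of the venous genes, Slc38a5, a glutamine carrier, had 137 ± 1.9 TPM, and Ackr1, a decoy chemokine receptor known from venules, was lowest with 17.5, 16.6 and 15.9 TPM. Medians of lists with different genes do not give the share of a segment.

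Mural cells were strongly represented. All 13 pericyte genes and 12 of 13 smooth muscle genes passed 10 TPM in every library, and the remaining muscle gene, Actg2, ranged from 9.66 to 12 TPM. The pericyte list was led by Vtn, a plasma and matrix adhesion protein, with 1446 ± 70 TPM, and by Rgs5, a regulator of G-protein signalling, with 853, 840 and 830 TPM. Abcc9, the regulatory subunit of a potassium channel, was lowest with 14.4 ± 0.15 TPM. Pdgfrb, the receptor that holds pericytes on vessels, had 78.1, 77.2 and 77.8 TPM, or 0.389 ± 0.0091 of Cdh5. The smooth muscle list was led by contractile genes, with Myl9 at 1235 ± 12, Acta2 at 897 ± 2.8, Tagln at 757 ± 3.0 and Myh11 at 162 ± 3.6 TPM. Other contractile genes of the list lay on both sides of Pdgfrb. Tpm2 had 419, 421 and 424 TPM and Mylk 115, 126 and 108, whereas Cnn1 had 38.3 ± 3.7 and Lmod1 24.7 ± 1.0 TPM. The list medians were 70.3 ± 0.55 TPM for pericytes and 116 ± 9.0 for smooth muscle.

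Perivascular fibroblast genes were also found, and 9 of 10 passed 1 TPM in every library. Apod and Igf2 led with 1529 ± 52 TPM and 1027 ± 7.3 TPM, and Dcn had 117, 119 and 123 TPM. The fibrillar collagens were lower, with Col1a2 at 53.2 ± 0.75, Col3a1 at 27.3, 31.6 and 34.1 and Col1a1 at 24.1, 24.0 and 26.2 TPM. Whether the Apod and Igf2 transcripts came from fibroblasts or from other cells in the libraries was not tested. Dpep1 was lowest with 0.786, 0.910 and 1.28 TPM.

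Cells of the brain tissue around the vessels left a clear signal. Of 14 astrocyte genes 12 passed 10 TPM, led by Gfap, the intermediate filament of astrocytes, with 111, 113 and 122 TPM. Aqp4, the water channel of astrocyte endfeet, was lowest in TPM with 0.681, 2.14 and 0.989. That value is not a reliable level, because the gene table deposited beside the transcript files gave Aqp4 1254, 1259 and 1241 normalized counts against 21.5, 146 and 78.7 fragments on the transcripts that could be joined to the annotation. All 14 neuronal genes passed 1 TPM and 12 passed 10 TPM. Snap25, a synaptic fusion protein, led with 110, 108 and 105 TPM, which was 0.539 ± 0.0086 of Cdh5, and Gad2 was lowest with 2.75, 2.88 and 2.27.

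Oligodendrocyte genes ranged from Mal with 216, 208 and 210 TPM and Mbp, the myelin basic protein, with 169, 161 and 160 TPM down to Opalin with 1.29, 0.979 and 1.60. The medians of the neuronal and oligodendrocyte lists, 24.9 ± 1.0 and 25.1 ± 0.41 TPM, did not differ beyond their spread. Oligodendrocyte precursor genes were low, with Olig1 highest at 11.6, 9.97 and 10.4 TPM and Neu4 lowest at 0.426, 0.417 and 0.393.

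Of 15 microglial genes all passed 1 TPM and 7 passed 10 TPM, against 62.5% and 40.2% of all protein coding genes. The complement genes C1qa, C1qb and C1qc led with 101 ± 2.5, 79.2 ± 0.99 and 75.1 ± 3.7 TPM. The genes regarded as more specific were lower, with Tmem119 at 7.21, 6.58 and 8.87, P2ry12 at 6.10, 5.14 and 4.70 and Gpr34, the lowest, at 3.25, 2.20 and 2.25 TPM. Trem2, a lipid receptor of microglia, varied more than most, with 9.33, 6.26 and 12.5 TPM. Perivascular macrophage genes were in the same range, from Pf4 with 53.4, 66.0 and 63.9 TPM, a gene that platelets also carry, to Mrc1 with 15.6, 15.4 and 16.2 and Lyve1 with 4.18, 3.34 and 4.08.

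Choroid plexus and ependymal genes were all 9 above 10 TPM. Beside Ttr, Folr1, a folate receptor, had 143, 142 and 144 TPM, Kl 93.7, 94.0 and 96.3, and Tmem212, the lowest, 21.4, 18.8 and 20.0 TPM. Ttr stood 116 ± 1.6-fold above Folr1, so most of the choroid plexus sum came from Ttr. Ccdc153, an ependymal gene, spread more than the others named here, with 44.9, 37.2 and 47.7 TPM. The part of choroid plexus tissue in these libraries was not tested beyond these levels.

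Blood cells were represented unevenly. The 4 haemoglobin genes together made up 1.02% ± 0.068 of TPM and were highest in library 3, where Hbb-bs had 4513 TPM against 3984 and 4052 in the others. Slc4a1, a membrane protein of red cells, stayed under 1 TPM. Of 6 platelet genes 4 passed 1 TPM. They reached 15.9, 15.8 and 13.9 TPM for Ppbp, the highest, and Gp5 was lowest with 1.06, 1.32 and 0.521. Of 11 neutrophil genes 4 passed 1 TPM and none passed 10. S100a9 led with 7.62, 7.77 and 7.35 TPM. The receptor genes Csf3r, with 1.39, 1.88 and 2.64 TPM, and Cxcr2, with 1.21, 1.26 and 1.28, also passed 1 TPM. Ly6g, Mpo and Elane had no fragment in any library. Of 12 lymphocyte genes 4 passed 1 TPM, and the list lay between Cd79a with 4.85, 3.85 and 4.54 TPM and Ncr1 with 0.196, 0.573 and 0.246.

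Genes of tissues outside the brain were used as a negative list. Of these 12 genes 5 nevertheless passed 1 TPM in every library, namely Ins2, Prl, Acta1, Ckm and Gh, and 7 stayed under it. None passed 10 TPM. Alb, Krt5, Muc5ac, Reg3g and Gp2 had no fragment, and Ins2 was highest with 8.00, 5.54 and 5.41 TPM. Xist, transcribed from the inactive X chromosome of females, had 43.6, 38.5 and 53.0 TPM, and the 4 Y-linked genes summed to 78.6, 90.6 and 63.2 TPM. Both sexes were thus present in every pool, and the ratio of Xist to the Y-linked sum was 0.555, 0.425 and 0.839, highest in library 3 and lowest in library 2.

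**Figure D2:**
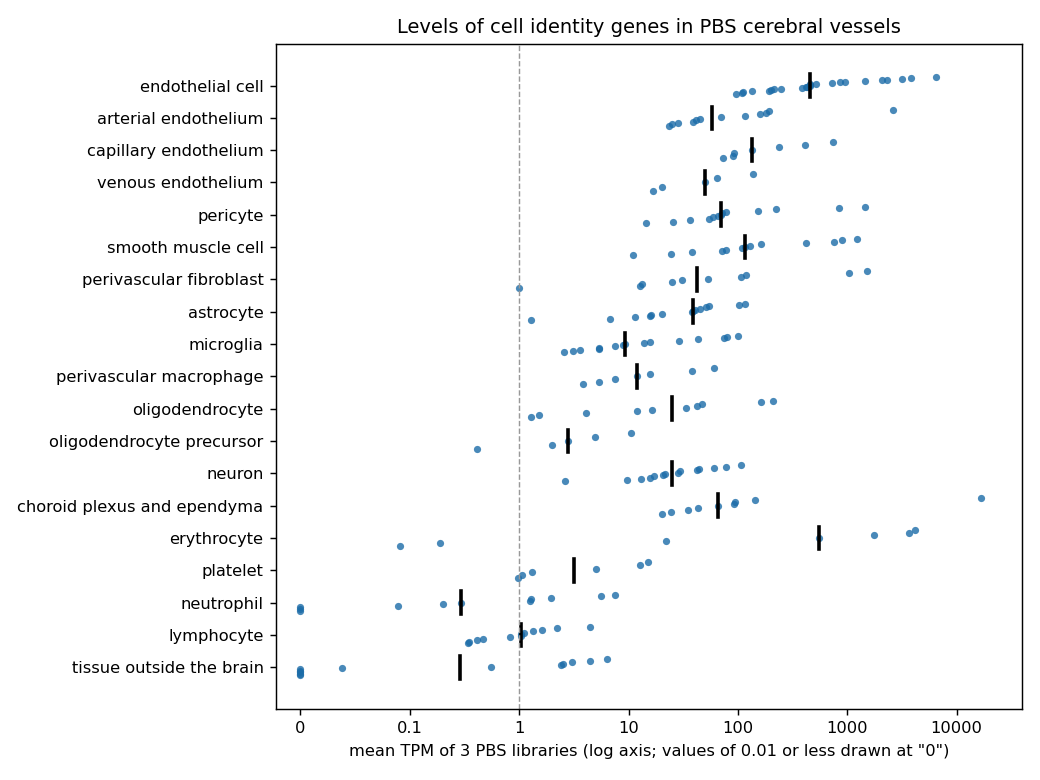
Mean TPM over 3 PBS libraries (log axis) of each gene of 19 lists, 1 point per gene, with the median of the gene means as a black bar and 1 TPM as a dashed line. Endothelial genes all lie above 96 TPM and mural genes above 10, while neutrophil genes and genes of tissues outside the brain include points at 0.

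The tight junction list was present throughout. All 22 genes passed 1 TPM, 15 passed 10 TPM and 7 passed 100 TPM. Cldn5 (chr16:18776847-18778262, plus strand, GRCm38), the claudin that seals brain endothelium against small molecules, had 3164, 3265 and 3139 TPM. Its lead over the next gene was wide, as Esam had 459 ± 1.5 and Lsr, a protein of tricellular contacts, 266 ± 1.3 TPM. Ocln, the transmembrane protein occludin, had 130, 122 and 121 TPM, so that Cldn5 exceeded it 25.7 ± 1.2-fold. Cgnl1, Ocln and F11r, at 127 ± 1.1, 124 ± 4.8 and 118 ± 3.0 TPM, followed each other closely, and Ocln and F11r overlapped across libraries. The scaffold Tjp1 had 203, 204 and 185 TPM summed over its transcripts. Its first transcript, coding 1745 residues, took 43.6% ± 0.12 of this. Tjp1-203, with 699 bases and no annotated coding sequence, took 27.0% ± 2.3. The lowest gene of the list was Marveld3 with 3.65, 2.36 and 4.50 TPM.

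Within the claudin family Cldn5 made up 97.1% ± 0.095 of TPM. Of the 23 claudin genes measured, 8 passed 1 TPM in every library and 6 had no fragment. Cldn2, known from choroid plexus epithelium, was next with 36.2, 34.2 and 35.4 TPM, and Cldn11, a claudin of myelin and meningeal cells, had 16.8, 15.2 and 17.1. Cldn12 with 12.9 ± 2.1 and Cldn1 with 11.9 ± 0.71 TPM did not differ beyond their spread. Cldn3, long discussed as a brain endothelial claudin, had only 5.63, 5.89 and 5.05 TPM, close to Cldn10 with 5.42 ± 0.42, and Cldn9 had 2.45, 3.14 and 5.04 TPM.

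The Slc2a family of hexose carriers showed the same pattern of a leader. Slc2a1 (chr4:119108711-119137983, plus strand, GRCm38), which encodes the glucose carrier GLUT1, had 1584, 1608 and 1527 TPM, or 94.9% ± 0.29 of the TPM of 11 family members. Slc2a12 with 24.5 ± 2.2 and Slc2a8 with 22.5 ± 0.98 TPM did not differ beyond their spread, and Slc2a4, the insulin-responsive carrier, had 13.5 ± 1.9. Slc2a6 had 7.53 ± 0.39 and Slc2a3, the neuronal carrier, 7.50 ± 0.73 TPM. Slc2a10 and Slc2a13 were present at 4.09 ± 0.30 and 2.15 ± 0.24 TPM.

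**Figure D3:**
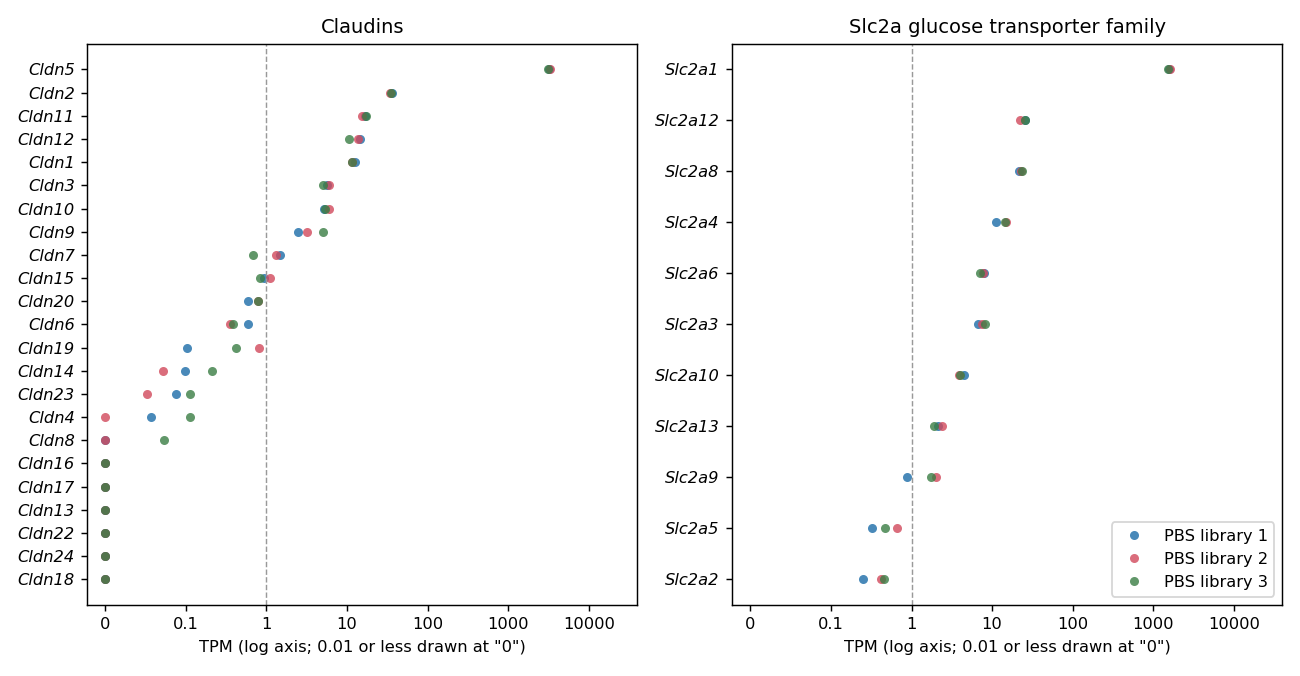
TPM (log axis) of 23 claudin genes (left) and 11 Slc2a genes (right) in each of 3 PBS libraries, with 1 TPM as a dashed line. Cldn5 at 3189 and Slc2a1 at 1573 mean TPM stand apart from the next members, Cldn2 at 35.3 and Slc2a12 at 24.5.

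Adherens junction genes all passed 10 TPM. Ctnnb1, the cadherin partner beta-catenin, was highest with 787, 787 and 789 TPM, and Cdh2, the N-cadherin, lowest with 14.9, 14.9 and 15.6 TPM. Of 24 nutrient transporters and receptors 23 passed 10 TPM and 13 passed 100 TPM. After Slc2a1 and Slco1a4 came Slc6a6, the taurine carrier, with 478, 471 and 452 TPM, and Slco1c1, a thyroxine carrier, with 454, 457 and 433 TPM. Their ranges overlapped, although Slc6a6 was the higher in every library. Slc7a5, the large neutral amino acid carrier, had 242, 242 and 232 TPM, and its partner chain Slc3a2 had 337 ± 9.5, a ratio of 0.710 ± 0.035. Tfrc, the transferrin receptor, had 135, 140 and 132 TPM. Mfsd2a, the lipid carrier known to restrain vesicle transport at the barrier, had 90.0, 94.1 and 93.1 TPM, and Slc5a3 was lowest with 5.60 ± 0.13.

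Efflux pumps were led by Abcb1a, the P-glycoprotein, with 406, 416 and 403 TPM, and Abcg2, the breast cancer resistance protein, with 196, 196 and 190 TPM. Abcc4 and Abcc5 followed with 75.4 ± 3.1 and 68.9 ± 2.1 TPM. The close copy Abcb1b was lowest with 4.82, 2.69 and 3.81 TPM, so Abcb1a exceeded it 84.1-, 154- and 106-fold. The spread of the ratio came from the TPM of Abcb1b, whose fragments, at 193.8, 169.5 and 170.8, varied less. These copies can share reads, and the cause of the spread was not tested.

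Genes of caveolae and vesicle transport all passed 10 TPM, with Cavin1 at 488 ± 11 TPM, Cav1 at 270, 258 and 250, and Ehd4 lowest at 67.8 ± 0.71. Of 6 genes that mark permeable vessels elsewhere all passed 1 TPM but only 2, Aqp1 and Plvap, passed 10 TPM, and the list median was 4.51 ± 0.068 TPM. Plvap, the diaphragm protein of fenestrated endothelium, had 22.1, 25.6 and 24.6 TPM, and Mfsd2a exceeded it 3.84 ± 0.20-fold. Choroid plexus genes were also present in these libraries, and which vessels gave the Plvap transcripts was not tested. Aqp1, which choroid plexus epithelium also expresses, led this list with 40.0, 42.7 and 43.3 TPM, and Fabp4 was lowest with 3.13, 3.38 and 2.61.

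The Wnt pathway is known to induce the barrier in brain endothelium. Of its 16 listed genes 13 passed 10 TPM. The targets Apcdd1, Nkd1, Notum and Axin2 had 137 ± 7.2, 110 ± 4.2, 101 ± 3.1 and 68.3 ± 6.4 TPM, and Lef1, the nuclear effector, had 85.2 ± 2.9. The coreceptors Adgra2 and Reck had 112 ± 2.9 and 83.4 ± 1.1 TPM. The listed ligands, which neural cells make, were the lowest of this list, with Wnt7b at 2.18, 1.68 and 1.96, Wnt7a at 1.29, 0.779 and 0.950 and Ndp at 0.282, 1.17 and 0.807 TPM. Other Wnt ligands, outside the list and looked up after the values were seen, were higher, with Wnt5b at 19.4 ± 0.53, Wnt11 at 19.2 ± 1.6 and Wnt5a at 17.4 ± 0.28 TPM.

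All 20 vessel transcription factors passed 10 TPM. Epas1, the hypoxia factor HIF-2 alpha, led with 671 ± 20 TPM, followed by Sox17 with 510, 522 and 522, Sox18 with 411, 413 and 422 and Klf2, a factor induced by flow, with 342, 351 and 348. Foxf2 and Foxq1, forkhead factors of brain vessels, had 106 ± 2.9 and 67.1 ± 1.9 TPM. Tal1 was lowest with 13.9 ± 0.64.

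All 16 basement membrane genes passed 10 TPM. Sparc, a collagen-binding protein, was highest with 874 ± 20 TPM, and Lama1 lowest with 13.8, 13.1 and 17.3. The collagen IV chains, which assemble together, had 156 ± 2.8 TPM for Col4a1 and 138 ± 2.1 for Col4a2, and their ratio was 1.13 ± 0.022. Among laminin chain genes, Lamb2 exceeded Lamb1 20.3 ± 1.3-fold and Lama5 exceeded Lama4 3.13 ± 0.16-fold, and Lamc1, the common gamma chain, had 92.7 ± 3.6 TPM. These ratios are of TPM summed over all transcripts of a gene. In Lama5 the transcript coding 3718 residues took 53.0% ± 3.2. Lama5-202, with 451 bases and no annotated coding sequence, took 41.8% ± 2.4. The transcripts of Lama4 were not examined.

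Transcript estimates were examined for 30 vessel genes. In 14 of them the first transcript took more than 90% of the gene's TPM, and in 9 it took less than 50%. Cldn5 had 1 annotated transcript, coding 218 residues. The first transcripts of Kdr and Cdh5 took 99.8% ± 0.13 and 99.6% ± 0.27. Flt1, which is known to be made as a membrane receptor and as a shorter soluble form, was divided between Flt1-202, coding 1333 residues, with 66.1% ± 0.37, and Flt1-203, coding 688 residues, with 32.2% ± 0.17. The division was nearly the same in every library.

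Slc2a1 was divided between Slc2a1-201, coding all 492 residues, with 66.6% ± 0.68 of TPM, and Slc2a1-204, annotated as a target of nonsense-mediated decay and coding 173 residues, with 32.9% ± 0.75. The first transcript of Abcb1a, coding 1276 residues, took 65.7% ± 3.2, and an annotated retained intron took 34.3% ± 3.2. In 2 of the 30 genes, Tfrc and Fn1, the first transcript was an annotated retained intron, with 43.1% ± 0.99 and 28.3% ± 3.6. TPM summed over a gene counts these transcripts too. The shares were less stable in Lef1, where Lef1-201 took 43.1% ± 3.8 and Lef1-203 42.8% ± 4.5.

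**Figure D4:**
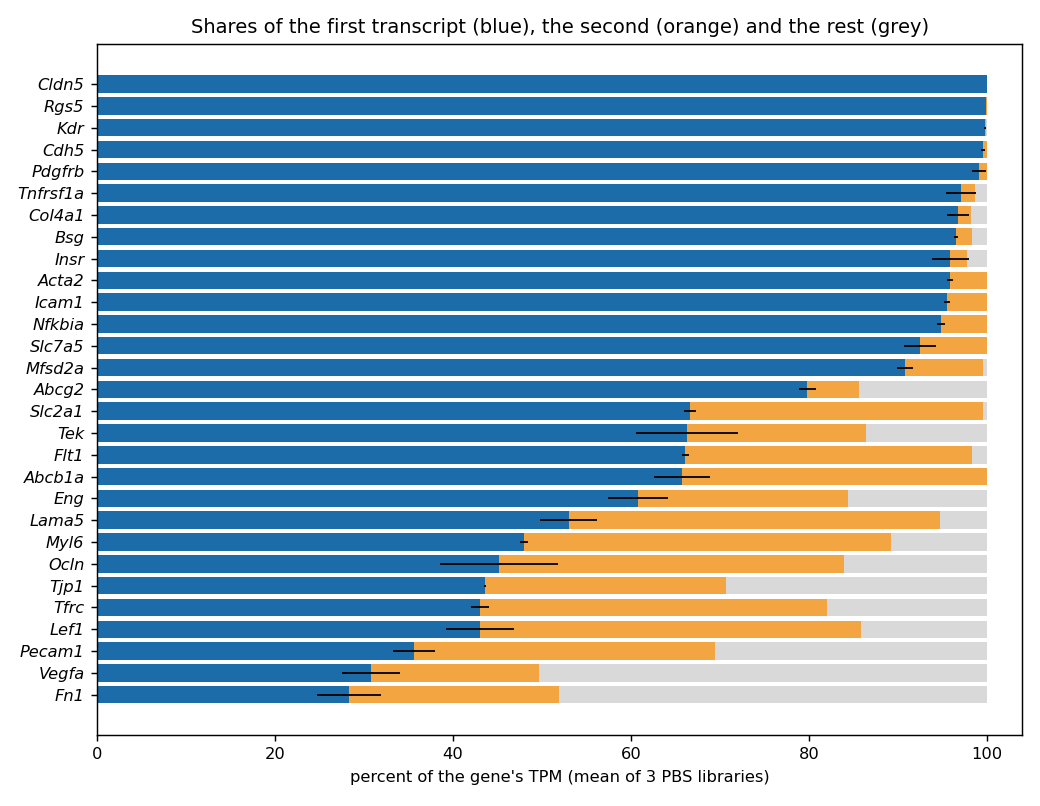
Percent of the TPM of each of 29 of the 30 genes taken by its first transcript (blue, with SD over 3 PBS libraries as the error bar), its second (orange) and all others (grey). Cldn5, Rgs5, Kdr and Cdh5 are almost wholly blue, whereas the first transcript of Vegfa takes 30.7% and that of Fn1 28.3%.

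Of 47 cytokine and chemokine genes, 27 stayed under 1 TPM in every library, 14 reached 1 TPM in every library and 6 fell on both sides. The 57.4% under 1 TPM stood against 33.7% of 21806 protein coding genes and 67.1% of all 54119 genes. Their summed level was 597 ± 1.7 TPM, and 79.7% of it came from 3 genes, Cxcl12, Cx3cl1 and Ccl19. Cxcl12, a homeostatic chemokine of vessels, had 306, 307 and 300 TPM. Cx3cl1, the membrane-bound fractalkine, had 96.6, 92.8 and 95.7 TPM, and Ccl19, a ligand of lymphocyte homing, 77.3, 73.5 and 77.2.

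The chemokines known to be induced in inflammation were near the limit. Cxcl10 had 2.90, 3.37 and 4.35 TPM from 43, 56 and 62 fragments, Cxcl1 1.73, 3.69 and 2.36, and Ccl2 1.47, 0.935 and 1.57 from 15, 10 and 15 fragments. Cxcl2 stayed at 0.417, 0.560 and 0.957 TPM, and Cxcl3 had no fragment. Cxcl10 and Cxcl1 overlapped across libraries, as did Ccl2 and Cxcl2, and Cxcl10 stood above Ccl2 in each of them.

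Among cytokines Csf1, the growth factor of macrophages and microglia, led with 38.9, 40.4 and 37.0 TPM. Il18 had 20.4, 20.9 and 20.6, Il15 12.9, 16.9 and 13.1 and Il33, an alarmin held in nuclei, 5.87, 6.92 and 6.40 TPM. Il4 passed the limit with 2.38, 1.31 and 4.08 TPM. The early cytokines were far lower, with Il1b at 0.300, 1.18 and 1.29 TPM from 4, 18 and 17 fragments, and Tnf at 0.0478, 0 and 0.386 TPM from 1, 0 and 8 fragments. Il2, Il6, Il10, Il12b, Il13, Il17a, Ifnb1, Ifng and Csf2 had no fragment in any library. With 70766757 fragments on annotated genes in all, a count of 0 allows up to 3 fragments, or 0.0424 CPM (fragments scaled to the library total), and this limit covers counting error only.

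Of 27 receptor and adaptor genes for such mediators 24 passed 1 TPM and 14 passed 10 TPM, while 62.5% of all protein coding genes passed 1 TPM. The interferon receptor chains Ifnar2 and Ifnar1 had 118 ± 1.0 and 80.1 ± 2.4 TPM. The TNF receptor Tnfrsf1a had 77.9, 76.3 and 79.8 TPM and exceeded Tnfrsf1b 3.85 ± 0.19-fold. The shared signalling chain Il6st had 75.0, 75.3 and 71.9 TPM, 5.82 ± 0.30 times Il6ra, and the interleukin 1 receptor Il1r1 had 40.3, 42.6 and 41.1. For lipopolysaccharide itself, Tlr4 had 2.64, 2.22 and 2.24 TPM, its partner Ly96 11.9, 10.4 and 9.78, and the coreceptor Cd14 5.32, 5.36 and 4.78. Ly96 thus exceeded Tlr4 4.52 ± 0.16-fold, the adaptor Myd88 had 24.0 ± 0.66 TPM, and Ticam2 was lowest with 0.327, 0.254 and 0.162.

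**Figure D5:**
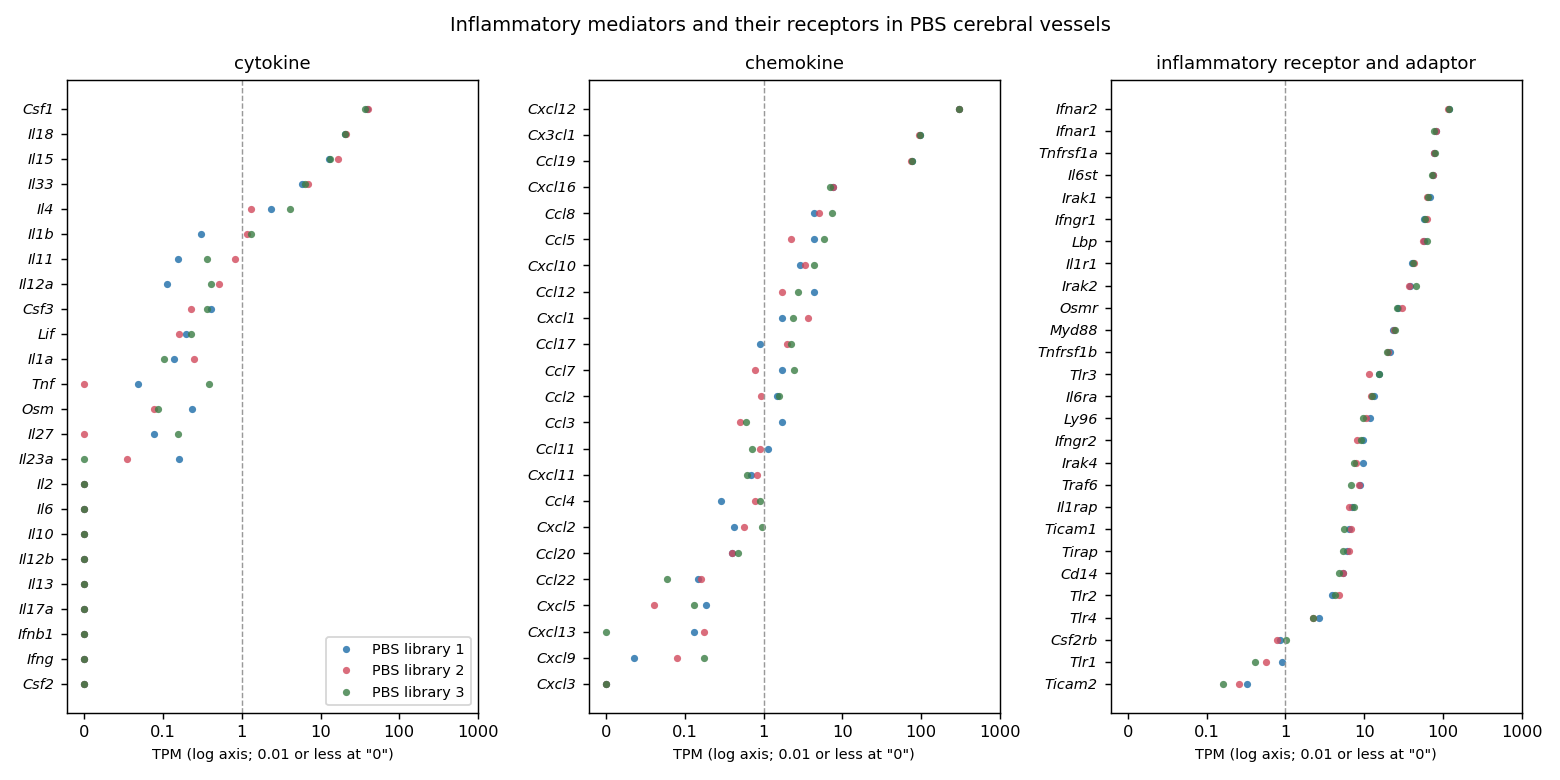
TPM (log axis) of 24 cytokine, 23 chemokine and 27 receptor and adaptor genes in each of 3 PBS libraries, with 1 TPM as a dashed line and values of 0.01 or less at the left edge. Most cytokines lie left of the line, 9 of them at 0 in all libraries, while 24 of 27 receptor and adaptor genes lie right of it in every library.

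Of 8 leukocyte adhesion genes 5 passed 1 TPM and 2 stayed under it in every library. Icam2, a constitutive endothelial ligand, had 181, 177 and 175 TPM and Vcam1, usually thought of as inducible, 167, 175 and 162. Their ranges lay next to each other. Icam1 had 42.8, 42.5 and 40.2 TPM. Sele, the E-selectin, stayed at 0.264, 0.276 and 0.197 TPM from 12, 14 and 9 fragments. Selp, the P-selectin, had 0.237, 0.280 and 4.90 TPM. Its fragments, at 13, 17.2 and 24.6, differed far less than its TPM. The gene table rests on the same transcript estimates. It showed the same step in library 3, with 7.49, 8.99 and 165 normalized counts, and is not a second measurement. The cause of the step was not tested.

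Among induced enzymes and acute phase genes 11 of 14 passed 1 TPM but only Lcn2, with 15.5, 13.7 and 14.8 TPM, and Ptgs2, the inducible cyclooxygenase, with 12.5, 12.7 and 11.8, passed 10. Nos2 had 8.27, 8.57 and 8.96, Socs3 8.40, 9.97 and 8.44 and Saa3 1.03, 1.48 and 1.37 TPM. Acod1 was lowest, at 0, 0.110 and 0.

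Interferon-stimulated genes were higher than the cytokines, and 18 of 20 passed 1 TPM. Bst2, an antiviral membrane protein, had 255, 240 and 254 TPM, Isg15, a ubiquitin-like protein, 143, 137 and 139, and Ifit3 61.7, 61.2 and 63.9. Ubd had no fragment, and Mx1 had 2.64, 0.929 and 3.04 TPM. No interferon beta or gamma transcript was seen in the same libraries.

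All 14 NF-kB pathway genes passed 1 TPM. Nfkbia, the inhibitor that NF-kB itself induces, led with 247, 253 and 256 TPM, 4.15 ± 0.14 times Rela, and Rel was lowest with 1.39, 1.62 and 1.48. Tnfaip3, another induced inhibitor, had 5.49 ± 0.24 TPM. Of 20 immediate early genes 19 passed 1 TPM and 14 passed 10. Klf2 and Jund led, with Jund at 213, 214 and 226 TPM, while Fos had 7.30, 7.73 and 6.90 and Egr2 was lowest with 0.409, 0.858 and 0.928. The immediate early list therefore covered a wide range, with Klf4, Ier2, Ier3 and Dusp1 all between 73 and 98 TPM.

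The promoters of present and silent genes held different letters, which is given here as a description with no test. RefSeq windows (GRCm38.p6) from 250 bases before to 50 after the start were matched to 16462 protein coding genes by symbol. Kept were 13354 genes whose RefSeq start lay within 500 bases of the start of their most abundant transcript. For genes with no TPM the start of the annotated gene was used, so the limit differed between classes. The median ratio of observed to expected CpG was 0.776 for genes at 100 TPM or more, 0.798 for 10 to 100 TPM and 0.690 for 1 to 10 TPM, against 0.281 for genes under 1 TPM and 0.156 for those with no fragment. TATAAA on the gene's strand in the 100 bases before the start was found in 3.38%, 1.43%, 2.28%, 6.93% and 15.4% of these windows, and in 4.62% of all. CpG-poor promoters were not confined to silent genes, since the median was 0.253 over the 13 endothelial identity genes of 24 that had a matched window.

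Of the 31 matched cytokine and chemokine promoters 13 held TATAAA (41.9%) and 8 held the NF-kB consensus on either strand of the whole window (25.8%, against 9.79% of all promoters). Other lists held the consensus too, in 6 of 10 NF-kB pathway, 6 of 14 interferon-stimulated and 6 of 15 immediate early promoters. It was in 1 of 4 leukocyte adhesion, 2 of 13 endothelial, 1 of 16 tight junction and 0 of 12 nutrient transporter promoters. Among cytokine and chemokine genes it was about as frequent at 1 TPM or more (3 of 10) as under 1 TPM (5 of 18). A match is a description of letters and not of binding. The 100 bases before the start of 5 genes are shown because they stand at the ends of the range described here, Cldn5 and Slc2a1 among the highest barrier genes, and Il6, Sele and Cxcl1 among the silent or low mediators. They were chosen after the values were seen. Sequences run 5′ to 3′ on the strand of the gene, all plus, and capitals mark the NF-kB consensus or TATAAA.
Cldn5, chr16:18776747-18776846: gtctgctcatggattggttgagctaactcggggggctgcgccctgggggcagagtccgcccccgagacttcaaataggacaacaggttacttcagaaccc
Slc2a1, chr4:119108645-119108744: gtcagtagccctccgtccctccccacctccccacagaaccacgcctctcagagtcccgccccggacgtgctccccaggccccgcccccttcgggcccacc
Il6, chr5:30013014-30013113: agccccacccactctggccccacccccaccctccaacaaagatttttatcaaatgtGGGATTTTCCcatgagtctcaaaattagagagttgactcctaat
Sele, chr1:164048134-164048233: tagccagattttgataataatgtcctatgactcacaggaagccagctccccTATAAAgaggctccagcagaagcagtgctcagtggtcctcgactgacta
Cxcl1, chr5:90891145-90891244: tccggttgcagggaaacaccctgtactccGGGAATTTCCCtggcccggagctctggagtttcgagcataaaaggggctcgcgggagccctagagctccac

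In these windows the observed to expected CpG ratio was 0.605 for Slc2a1 and 0.476 for Cldn5, against 0.397 for Cxcl1, 0.231 for Sele and 0.214 for Il6. These 5 do not stand for all genes at either level. Ly6c1, among the highest endothelial genes, had a ratio of 0.0575 and Acta2 0.270, below or near the mediators, while the chemokine Cxcl12 had 0.639. Motifs were found in present genes too, the NF-kB consensus in Nfkbia and TATAAA in Cx3cl1.

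The libraries varied little. Among 9516 genes with a mean of at least 10 TPM the median coefficient of variation over 3 libraries was 5.29%, and among 1303 genes at 100 TPM or more it was 3.25%. A coefficient of variation beyond counting, shared by 17244 genes and fitted to their fragments, came to 0.0510, and to 0.0567 without library 1, 0.0505 without library 2 and 0.0465 without library 3. Of 14728 genes with at least 50 fragments on average, 568 (3.86%) had an own value above 0.2. Among the listed genes with such counts, Aqp4 apart, Slc2a9 and Ckm, a muscle gene with 61.9, 62 and 31 fragments, were among the most variable. Xist and the Y-linked Eif2s3y had 0.186 and 0.156.

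The 10 most variable genes were Dnah7b, Srcin1, Gm3883, Gm20458, Gm28048, Mdh1, Aqp4, Arhgap39, Pagr1a and AW011738. Their values ran from 1.03 for Dnah7b to 0.775 for AW011738. Several of them varied far less in the gene table. Mdh1, a malate dehydrogenase, had 101, 18.0 and 88.9 fragments on joined transcripts, but 3878, 3956 and 4122 normalized counts in the gene table. Aqp4 and Srcin1 likewise varied by 0.714% and 4.81% in the gene table. Gm3883, Gm20458 and Gm28048 kept a wide spread there, at 76.0%, 72.4% and 80.2%. Among 20 genes with over 200 normalized counts and a table value at least 4 times the joined fragments, Aqp4 was the only listed gene.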

How the data were processed

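RNA of mouse cerebral vessels was sequenced from SMART-Seq libraries. The authors quantified transcripts with Salmon (version 1.2.1 in the submitters' processing notes), which gave TPM and estimated counts (fragments per transcript, not whole numbers) in 1 file per library. The authors' gene table holds DESeq2-normalized counts, a depth-scaled signal, on GRCm38.p6, and its 12 sample columns were all matched by number. Other columns of the transcript files give lengths.

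Here, 139852 of 140948 transcripts were joined to GENCODE M21 (GRCm38) without version numbers, and TPM and estimated counts were summed per gene. The 1096 others held 0.510%, 0.502% and 0.497% of fragments and were left out. Total fragments were 22962290, 25641124 and 22521063. Levels are read at 1, 10 and 100 TPM in every library. No group was compared and no p-value was computed. Coefficients of variation were fitted with edgeR 4.0.16 in R 4.3.3 on counts rounded to whole numbers, tested on simulated data. Tables were made in Python 3.11.15 with pandas 2.3.3.

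Genes were named by a rule: the 20 highest by mean TPM, genes of 40 lists with the highest and lowest of each, every claudin and Slc2a gene present, the first transcripts of 30 genes, and the 10 genes most variable beyond counting. The members and the lists were chosen with earlier results of these data known. Alternatives were other TPM limits, CPM, the gene table per effective length, protein coding transcripts only, the mitochondrial genome left out, other scaling or no filter for the variation, and each library left out. Protein sequences were not used here. The labels give no batch. A few listed genes entered the counts and sums but are not reported here by name.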

Additional observations from a re-analysis of the deposited data

Results flagged for a closer look

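Fragments outside the annotation formed a small signal that the levels above leave out. Transcripts that did not join GENCODE M21 held 0.503% ± 0.0069 of fragments (mean ± SD, 3 libraries). Groups of 3 libraries were too small for a test of outlying values.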

How the results depend on the processing

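The count of present genes, the counts of silent and of present cytokine and chemokine genes, and the Cldn5 share of claudin TPM stayed within 1.5 times the main count or within 1 SD under every alternative run. The 10 most abundant genes held 7.47% of fragments, 9.56% of TPM with the mitochondrial genome left out and 15.1% without transcripts under 300 bases, an alternative chosen after seeing the data. Leaving out the mitochondrial genome did not remove its nuclear copies Gm28661 and Gm29216. The mitochondrial share was 6.43% of fragments and 12.98% without those transcripts. The endothelial median was 509 TPM over protein coding transcripts only, 598 without the mitochondrial genome and 519 without transcripts under 300 bases, all from rescaling to fewer transcripts. The biological coefficient of variation ranged from 0.0465 to 0.0567 with 1 library left out. Very short transcripts, near-identical copies and transcripts missing from the annotation limit single TPM values. No paired analysis was possible because no groups were compared.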

Other observations

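Further gene families were gathered by symbol after the values were seen. The first member held from 13.4% of family TPM in the solute carriers and 14.4% in the potassium channels to 78.1% in the sphingosine 1-phosphate receptors. Of 378 solute carrier genes 260 passed 1 TPM in every library and 20 passed 100 TPM, and outside the lists above Slc22a17 had 442 ± 6.3 TPM and Slc25a3, the mitochondrial phosphate carrier, 338 ± 5.5. Of 31 integrin genes 22 were present, led by Itgb1 with 249, 250 and 251 TPM and Itga6, a laminin receptor chain, with 119 ± 3.9. Of 5 sphingosine 1-phosphate receptors S1pr1, a guardian of endothelial junctions, had 166, 178 and 166 TPM, or 78.1% of the family. Notch4, an endothelial Notch receptor, had 192 ± 5.4 TPM and Notch3, the mural one, 59.8 ± 0.32.

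Sema7a had 392 ± 16 TPM, 43.8% of the TPM of 20 semaphorins. Gja4, a connexin of arterial endothelium, had 116 ± 5.9 TPM. Among 22 chemokine receptors Ackr3, a scavenger of Cxcl12, held 60.0% of TPM with 63.3, 67.9 and 60.3, while Cxcr4, the signalling receptor of that ligand, had 6.34 ± 0.64 TPM. Of 12 toll-like receptors 6 were present, and Tlr3, a sensor of double-stranded RNA, led with 15.6, 11.7 and 15.3 TPM. Col9a3 had 290 ± 8.9 TPM, the highest of 44 collagen genes and above both collagen IV chains in every library.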
